A study of Arabidopsis thaliana with 16 samples.

Results

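The comparison described here set Arabidopsis seedlings given epi-brassinolide (BL) against seedlings given only its solvent, both without hydrogen peroxide (H2O2). Its members are the arrays whose titles state 0 mM H2O2, 3 with 1 µM BL and 3 with solvent, which makes 6 of the 16 Affymetrix ATH1 arrays in the series. The other 10 arrays pair BL with solvent once at each H2O2 dose of 1, 5, 25, 50 and 100 mM. BL seedlings and solvent seedlings were whole wild-type plants (Col ecotype) that had spent 12 days in liquid culture, 1 h in darkness and a further 30 min there in medium without H2O2. The BL seedlings then received BL dissolved in ethanol, and the solvent seedlings the same amount of ethanol alone, for 1 h in the dark. The labels number the arrays of a group as replicates without saying that they came from separate cultures, so the p-values below measure only the spread between these arrays. Each array gives one log2 signal per probe set, a group of short probes for one transcript.

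Brassinosteroids are steroid hormones of plants. BL binds the receptor kinase BRI1 at the cell surface, the kinase BIN2 is then inactivated, and the transcription factors BZR1 and BES1 change the expression of many genes, including genes of cell wall loosening and genes of hormone synthesis that the pathway holds down when BL is high. In seedlings the hormone is known for promoting cell elongation, and applied brassinosteroids are also known for raising tolerance of heat and other stress. The comparison asks which genes respond to the hormone within its short exposure when no oxidative stress is present.

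The 6 arrays were not alike within their groups. Over the 13140 probe sets tested, the BL arrays correlated with one another at 0.987 to 0.990 (Pearson's r, a description over probe sets that are not independent of each other). Solvent arrays 1 and 2 correlated at 0.964, while solvent array 3 correlated at 0.907 with solvent array 1, at 0.819 with solvent array 2 and at 0.816 to 0.823 with the BL arrays. The median SD of a probe set was 0.157 log2 units within BL and 0.357 within solvent, or 0.169 over solvent arrays 1 and 2. Solvent array 3 lay at least 1 log2 unit above the mean of the other solvent arrays at 1588 probe sets and as far below it at 1984, whereas no BL array did so against the other two at more than 103 in either direction. Where solvent arrays 2 and 3 were at least 2 log2 units apart, solvent array 1 lay between them at 1307 of 1393 probe sets. Its median position there was 0.30, with 0 at solvent array 2 and 1 at solvent array 3, so it was mostly nearer to solvent array 2. No other array was placed in this way for comparison. Calls, list medians and the differences of named genes are therefore given both with all 6 arrays and without solvent array 3. Control probe sets at the 3′ end exceeded their 5′ partners, a sign of RNA quality, by a mean over 6 pairs of 1.57, 1.48 and 1.59 on the BL arrays and 1.52, 1.40 and 1.60 on the solvent arrays, so it did not set solvent array 3 apart.

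Few genes passed the test with all 6 arrays. A probe set was called at a limma p-value, adjusted by Benjamini and Hochberg over all 13140, under 0.05, and 3 probe sets were called, all higher with BL (0.0228% of those tested) and 0 lower (0%). At an unadjusted p under 0.05 there were 1213 (9.23%), of which 729 were higher (5.55%) and 484 lower (3.68%) with BL. All BL arrays lay above all solvent arrays at 1895 probe sets (14.4%) and below them at 1028 (7.82%). The count of 3 was 0 without BL array 1, BL array 3 or solvent array 1, 2 without BL array 2 and 93 without solvent array 2, of which 26 were higher and 67 lower with BL.

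Without solvent array 3 the count was 52 (0.396%), with 45 higher (0.342%) and 7 lower (0.0533%) in BL seedlings, and it held all 3 of the first calls. At an unadjusted p under 0.05 there were 1471 (11.2%). The 52 had the same sign in both fits. At 41 of them all 3 solvent arrays lay on one side of all 3 BL arrays, and at the other 11 solvent array 3 lay within or past the BL arrays. The filter on signal (5 or more on at least 2 of the 16 arrays) was passed only through the BL arrays at 0 mM by 2 of the 3 probe sets called with all arrays and by 12 of the 52, against 169 of all 13140. Since these were tested only because they were high in BL seedlings, their calls support nothing by themselves. The platform annotation gave 23 of the 52 a single gene, 1 several and 28 none. Against solvent array 2 alone 31 probe sets were called and against solvent array 1 alone 694, with the lone array taken to vary like the BL arrays, so the count depends on which solvent array BL is set against.

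**Figure D1:**
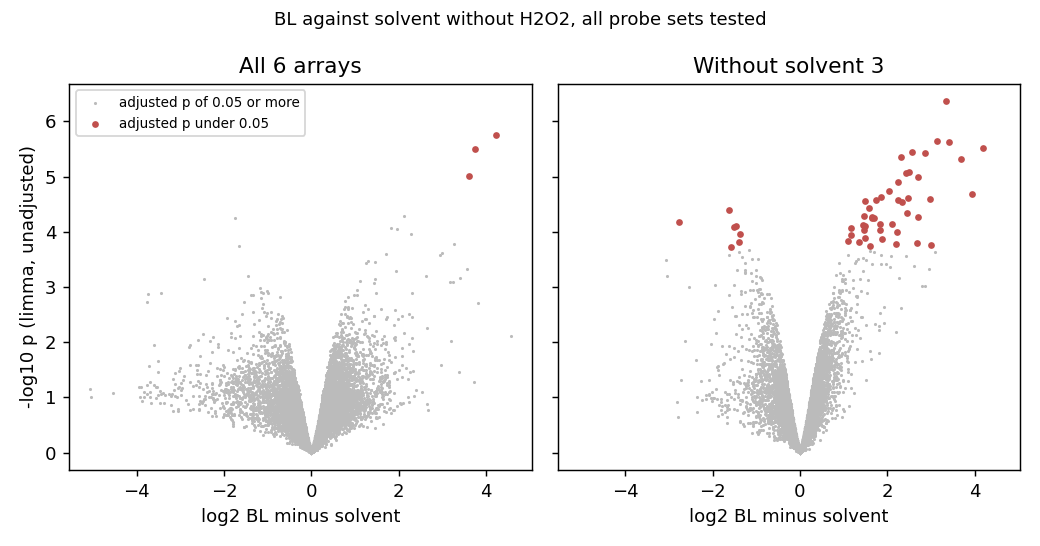
Each point is 1 of the 13140 probe sets tested, with the log2 difference of BL minus solvent on the horizontal axis and −log10 of the unadjusted limma p on the vertical axis, for all 6 arrays (left) and without solvent array 3 (right); red marks an adjusted p under 0.05. The 3 calls on the left are all higher with BL, and the 52 on the right divide into 45 higher and 7 lower.

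AT1G71000, which encodes a protein with a DnaJ domain, the domain by which co-chaperones act on HSP70, was the one gene with a name called with all 6 arrays. Its log2 signal was 7.22, 7.14 and 7.43 on the BL arrays, against 3.90, 3.95 and 3.09 on the solvent arrays. The groups were far apart, and solvent array 3 was the lowest of all. BL seedlings averaged 7.26 ± 0.15 and solvent seedlings 3.64 ± 0.48 (SD, n = 3 arrays each), a log2 difference of 3.62 (SE 0.27, limma adjusted p = 0.0426) or 12.3-fold. Without solvent array 3 the difference was 3.34 (SE 0.15, adjusted p = 0.00567). Leaving out each array in turn kept it between 3.34 and 3.77, but the adjusted p was 0.432, 0.518, 0.57 and 0.287 without BL array 1, 2 or 3 or solvent array 1. The call was also lost when no filter on signal was used (limma adjusted p = 0.233).

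The other probe sets called with all 6 arrays have no gene in the annotation used here and were singled out after their values were seen. Probe set 257506_at had 6.47, 5.97 and 6.81 with BL, against 2.22, 2.22 and 2.12 with solvent, a log2 difference of 4.23 (SE 0.24, adjusted p = 0.0204). Probe set 259784_at had 6.20, 5.56 and 6.16 with BL, against 2.12, 2.47 and 2.12 with solvent, a difference of 3.74 (SE 0.23, adjusted p = 0.0204). Their solvent values lie at or near 2.12, the lowest value on any array, so the size of the difference is uncertain. Both reached 5 on the BL arrays at 0 mM and on no other array, so they were tested only through the group where they are high, and their calls are given as a description.

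Further genes separated the groups on every array, yet were not called with all 6 arrays and were called without solvent array 3. The nucleobase transporter family gene AT4G38050 stood at 5.24, 5.29 and 5.78 with BL, against 3.52, 3.67 and 3.23 with solvent. Its log2 difference was 1.97 (SE 0.22, adjusted p = 0.169) with all arrays and 1.85 (SE 0.20, adjusted p = 0.0315) without solvent array 3. AT1G44414 had 5.93, 6.38 and 6.31 in BL seedlings, against 4.13, 3.80 and 4.33 in solvent seedlings, and solvent array 3 was here the highest of its group. The difference was 2.12 (SE 0.21, adjusted p = 0.146), or 2.24 without that array (adjusted p = 0.0178). Similarly placed were AT4G09890, with differences of 1.84 and, without solvent array 3, 1.70 (adjusted p = 0.0258), and the dynein light chain family gene AT5G20110, with 1.71 and 1.49 (adjusted p = 0.0178). AT4G38050 and AT5G20110 passed the filter on signal only through the BL arrays at 0 mM, so their calls carry no weight beyond the values. Without solvent array 2 the adjusted p was 0.0435 at AT4G38050 and AT4G09890 and 0.0412 at AT1G44414. AT4G38050, AT4G09890 and AT1G44414 were not called when a BL array or solvent array 1 was left out (limma adjusted p of 0.484 to 0.763).

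The rule that fills the rises up to 10 genes by smallest p also names genes that passed in neither fit. AT5G47330, a member of a family of palmitoyl thioesterases, which remove lipid groups from proteins, had 7.63, 6.65 and 6.07 with BL and 3.85, 3.81 and 3.83 with solvent. The BL arrays spread over more than 1 log2 unit while the solvent arrays were nearly equal, and the difference of 2.95 had a limma adjusted p of 0.267, or 0.0789 without solvent array 3. The lipid droplet protein gene AT1G67360 differed by 1.43 and, without solvent array 3, by 1.60, AT4G19430 by 1.45 and 1.44, and AT3G02910 by 1.05 and 0.97. SPT, which encodes the bHLH transcription factor SPATULA, known from carpel development, had 7.21, 7.003 and 7.10 with BL, against 6.36, 6.34 and 6.07 with solvent. That small difference of 0.85 (SE 0.16, adjusted p = 0.461), or 0.76 without solvent array 3, exceeded the spread within either group.

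Among genes lower with BL, none was called with all 6 arrays. UGT85A2, a glucosyltransferase gene of the family that links sugars to small molecules, had 8.02, 7.84 and 7.95 with BL, against 9.72, 9.42 and 9.89 with solvent. Every solvent array was more than 1 log2 unit above every BL array, and the difference was -1.74 (SE 0.18, adjusted p = 0.146), or -1.63 without solvent array 3 (SE 0.15, adjusted p = 0.0227). The phosphate transporter family gene AT1G35350 had 7.64, 7.45 and 7.80 with BL, against 9.23, 9.03 and 9.61 with solvent, with differences of -1.66 (adjusted p = 0.234) and, without solvent array 3, -1.50 (adjusted p = 0.0298). Both genes were also called lower without solvent array 2 (adjusted p = 0.0326 and 0.0457), among 67 probe sets called lower in that fit. That fit kept solvent arrays 1 and 3, and in both genes solvent array 3 was the highest and solvent array 2 the lowest of the solvent arrays. Neither gene was called when a BL array or solvent array 1 was left out (limma adjusted p of 0.547 to 0.763). AT1G63720 showed the widest gap of these, with 3.42, 3.01 and 3.98 against 6.27, 6.22 and 8.29. Its difference was -3.45 (SE 0.61) with all arrays and -2.77 (SE 0.28, adjusted p = 0.0287) without solvent array 3.

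BRH1 encodes a RING finger protein and takes its name from brassinosteroid response. It had 6.37, 6.65 and 6.62 on the BL arrays, against 7.91, 8.10 and 5.37 on the solvent arrays. Solvent array 3 alone lay below BL, so the groups overlap. The difference was -0.58 (SE 0.73, limma adjusted p = 0.672) with all 6 arrays and -1.46 (SE 0.15, adjusted p = 0.0296) without that array. TRM28 and AT1G21050 also fell when it was left out, with differences of -1.40 and -1.37 (adjusted p = 0.0433 and 0.0355) against -1.12 and -1.02 with all arrays. TRM28 reached a signal of 5 on 2 solvent arrays at 0 mM, on 1 array with H2O2 and on no BL array at 0 mM. It thus passed the filter on signal only through the solvent arrays, and its call carries no weight beyond the values. The falls that fill the rule up to 10 passed in neither fit. They were the receptor kinase gene AT1G17230, which differed by -1.17 and, without solvent array 3, by -1.004, AT1G66890 by -0.99 and -1.11, AT1G18740 by -1.10 and -0.97 and the glucosyltransferase gene AT5G05880 by -1.39 and -1.50. The glucanase gene AT2G27500 differed by -1.33 and -1.12, the RING finger gene AT1G45180 by -0.72 and -0.71 and the fructokinase family gene AT3G59480 by -1.15 in both.

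**Figure D2:**
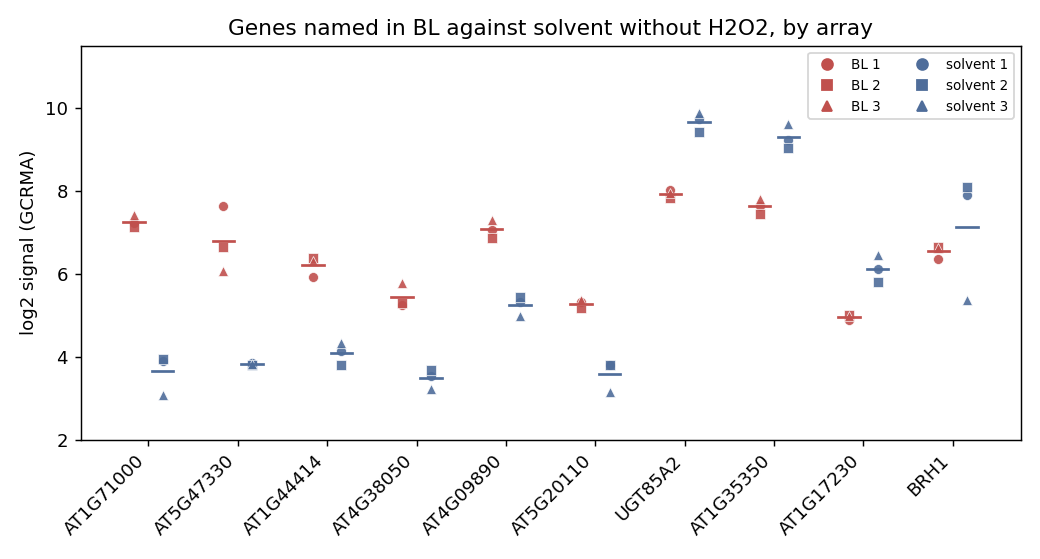
Points give the log2 GCRMA signal of 10 named genes on each array, BL in red left of solvent in blue, with the replicate number as the symbol and a bar at the mean of 3 arrays. The groups do not overlap in 9 of these genes. The genes were named for non-overlapping arrays or for smallest p, so this count follows largely from the choice. Over all probe sets, the BL arrays lay above all solvent arrays at 14.4% and below them at 7.82%. At BRH1 solvent array 3 lies below the BL arrays at 5.37 while the other solvent arrays lie above them.

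Small heat shock proteins are chaperones that keep damaged proteins from clumping, and Arabidopsis makes forms for the cytosol, endoplasmic reticulum, mitochondria and peroxisomes. Of the 18 genes in the heat shock list, 7 had a probe set of their own that was tested, and all 7 were higher with BL on average in both fits. With all 6 arrays 0 of 7 were called, with a median log2 difference of 1.78, against 0.0228% of probe sets called and a median of 0.088 over the 6996 genes tested. Without solvent array 3, 4 of 7 rose, with a median of 2.43, against 0.342% of probe sets called higher and a median of 0.036. Over the 6996 genes, 17 were called higher in that fit. This list was chosen with earlier results of these data known, so the contrast may follow in part from the choice. The mean signal of the list was 8.41, 8.999 and 8.90 on the BL arrays, against 6.59, 6.39 and 8.49 on the solvent arrays, so solvent array 3 reached the level of BL. A list of 20 small heat shock protein genes, drawn up after these values were seen and sharing members with the first, had 10 tested members, of which 0 were called with all arrays and 5 rose without solvent array 3, with medians of 1.63 and 2.16.

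ATHSP22.0, which encodes HSP22 of the endoplasmic reticulum, had 8.33, 8.90 and 8.48 with BL, against 5.11, 5.22 and 7.40 with solvent. All BL arrays were above all solvent arrays, and solvent array 3 lay more than 2 log2 units above the other solvent arrays. The difference was 2.66 (SE 0.63, limma adjusted p = 0.502) with all 6 arrays and 3.41 (SE 0.20, adjusted p = 0.0079) without solvent array 3. AT1G53540, encoding the cytosolic HSP17.6C, had 9.05, 9.36 and 9.27 with BL, against 6.78, 6.25 and 9.29 with solvent. Here solvent array 3 lay within the BL arrays, and the differences were 1.78 and 2.71 (adjusted p = 0.0123 without solvent array 3).

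The peroxisomal HSP15.7 gene AT5G37670 had 9.43, 9.55 and 9.86 with BL, against 7.28, 7.09 and 9.11 with solvent. Its difference was 1.78 with all arrays (limma adjusted p = 0.502) and 2.43 without solvent array 3 (adjusted p = 0.0112). AT1G54050, of the cytosolic class III, had 10.62, 10.80 and 11.06 with BL, against 8.67, 8.50 and 10.21 with solvent. It differed by 1.71 with all arrays (limma adjusted p = 0.502) and by 2.25 without solvent array 3 (adjusted p = 0.0138). In both genes solvent array 3 was nearer to BL than to its own group without reaching it. The mitochondrial HSP23.5 gene AT5G51440 had 8.71, 9.17 and 9.24 with BL, against 7.36, 6.97 and 9.34 with solvent, and its difference was 1.16 with all arrays and 1.88 without solvent array 3 (adjusted p = 0.0401). AT1G52560, for HSP26.5, differed by 2.24 and 2.79 and was called in neither fit, with BL arrays from 4.83 to 6.26 and solvent arrays from 2.72 to 4.64.

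Of the remaining small heat shock protein genes tested, AT2G29500 differed by 1.56 and, without solvent array 3, by 2.07, AT2G19310 by 0.74 and 1.27, AT4G21870 by 0.95 and 0.52 and AT5G54660 by 0.41 and 0.25, none of them called. In AT4G21870 and AT5G54660 solvent array 3 was the lowest array and not the highest of its group. The co-chaperone gene Fes1A, whose product protects HSP70 under heat, differed by 0.94 and 1.31, and AT5G48570, the immunophilin gene ROF2, by 0.70 and 1.41. Among genes outside the heat shock list, AT1G66080 is related to the nuclear import carrier of HSP70 known as Hikeshi in animals. It had 6.43, 6.62 and 6.93 with BL, against 4.11, 4.51 and 6.10 with solvent. The difference was 1.75 with all arrays (limma adjusted p = 0.502) and 2.35 without solvent array 3 (adjusted p = 0.0178). AT4G23493 had 7.001, 7.001 and 7.13 with BL, against 4.79, 4.31 and 6.30 with solvent. It differed by 1.91 with all arrays (limma adjusted p = 0.502) and by 2.50 without solvent array 3 (adjusted p = 0.0112).

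Larger chaperones gave a mixed picture. HSP70-3 (AT3G09440) had 9.70, 9.75 and 9.49 with BL, against 9.20, 8.76 and 9.59 with solvent, and Hsp70-2 had 4.82, 5.20 and 4.94, against 5.69, 4.71 and 7.58. Neither was called in either fit, and with all arrays the groups overlap in both. Without solvent array 3 the BL arrays were all higher for HSP70-3, whose difference was 0.46 with all arrays and 0.67 without it, and Hsp70-2 differed by -1.01 and -0.22. Of 5 tested DnaJ genes, a list also drawn up after the values were seen, AT1G71000 was the one called, in either fit, against 0.0228% and 0.396% of all probe sets. AT2G20560 differed by 1.61 and, without solvent array 3, by 2.26 (adjusted p = 0.0964), AT4G28480 by 0.28 and 0.43, AT5G01390 by 0.18 and 0.14, and AT3G08910 by -0.14 and 0.29.

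**Figure D3:**
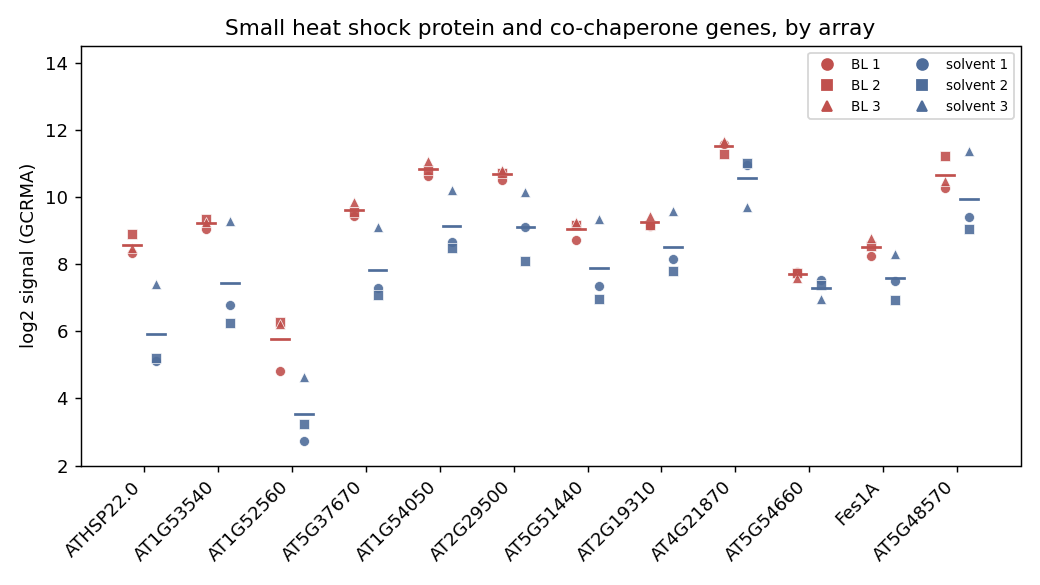
Points give the log2 GCRMA signal of the 10 tested small heat shock protein genes, Fes1A and ROF2 (AT5G48570) on each array, BL in red left of solvent in blue, with the replicate number as the symbol and a bar at the mean of 3 arrays. BL arrays lie above solvent arrays 1 and 2 in all 12 genes, as they do at 1351 of all 6996 genes tested. The list of small heat shock protein genes was drawn up after these values were seen. In 10 of the 12 genes solvent array 3 (blue triangle) lies above the other solvent arrays, as in AT1G53540 at 9.29.

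Genes of the hormone's own pathway were thinly covered. Of 17 genes for brassinosteroid synthesis and inactivation the annotation gave none a probe set of its own, and 8730 probe sets of the array carry no gene symbol in it, so the fall in synthesis genes that BL is known for was not analysed here. BIM1, a partner of BES1, was the one tested member of 18 in the list of perception and signalling. It had 7.20, 7.31 and 6.98 with BL, against 7.61, 8.18 and 7.02 with solvent, a difference of -0.44 (adjusted p = 0.523), or -0.73 without solvent array 3 (adjusted p = 0.313). Of 12 transcription factor genes known to answer to brassinosteroids, 0 were tested.

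Of 22 growth genes known to rise with brassinosteroids, 5 were tested and 0 called in either fit, with a median log2 difference of 0.73 with all arrays and 0.15 without solvent array 3, against 0.088 and 0.036 over all genes. XTH19, an enzyme gene that remodels xyloglucan in the cell wall, had 8.55, 8.08 and 8.31 with BL, against 7.30, 7.43 and 7.64 with solvent, differences of 0.86 (SE 0.19, adjusted p = 0.502) and 0.95 (adjusted p = 0.151). XTH16 of the same family had 8.40, 8.33 and 8.61, against 7.71, 8.19 and 6.22. The difference of XTH16 was 1.07 and, without solvent array 3, 0.50. In these 2 of the 5 genes every BL array lay above every solvent array, as at 14.4% of all probe sets. XTH18 had 11.25, 11.37 and 11.58 with BL, against 11.73, 10.78 and 13.15 with solvent, a difference of -0.48 that was 0.15 without solvent array 3. EXO, needed for brassinosteroid-promoted leaf growth, had 11.33, 11.26 and 11.46, against 11.15, 11.58 and 9.14, and its difference of 0.73 was -0.014 without solvent array 3. ARL, which promotes cell growth in organs, differed by -0.15 and, without solvent array 3, by -0.072. The 8 tested expansin genes, whose products loosen walls, had medians of 0.48 and 0.19 and the 5 XTH genes 0.86 and 0.39, with 0 called in either fit.

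Auxin and gibberellin act with brassinosteroids on growth. The auxin-conjugating enzyme genes GH3.17 and GH3.3 differed by 1.52 and 0.95, or by 0.81 and 0.49 without solvent array 3, and WES1, also known as GH3.5, by -0.99 and -0.82. WES1 had 8.16, 8.41 and 8.12 with BL, against 9.30, 8.81 and 9.56 with solvent, with no overlap between the groups (adjusted p = 0.502 and 0.226). The gibberellin receptor genes GID1A, GID1B and GID1C differed by 0.79, -0.44 and 0.46, or by 0.38, -0.26 and 0.24 without solvent array 3. GID1A had 10.44, 10.29 and 10.40 with BL, against 9.92, 10.08 and 8.77 with solvent. None of the 6 tested genes of these 2 lists was called in either fit.

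Of 5 tested genes of touch and early stress, STZ, WRKY53 and WRKY6 were highest on solvent array 3 and next on solvent array 1, and the other two were not. STZ, which encodes the zinc finger repressor ZAT10, had 6.64, 6.43 and 6.67 with BL, against 9.04, 7.38 and 11.07 with solvent. The solvent arrays are all higher but spread over more than 3 log2 units, and the difference of -2.58 (SE 0.88) had a limma adjusted p of 0.502, or 0.296 at -1.63 without solvent array 3. WRKY53, a transcription factor gene of senescence and defence, had 6.88, 6.19 and 6.11, against 9.01, 5.86 and 9.26, and of the fits that leave out 1 array it was called lower only in the one without solvent array 2 (difference -2.74, limma adjusted p = 0.0412). WRKY6 had 9.67, 9.28 and 9.18, against 10.56, 9.31 and 11.17, with differences of -0.97 and -0.56. The calmodulin-like genes CML38 and CML37 differed by 0.059 and -0.18, or by -0.11 and -0.23 without solvent array 3. The 5 members had a median of -0.97, or -0.56 without solvent array 3, with 0 called in either fit. How far the state of solvent arrays 1 and 3 enters the other differences was not tested.

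Markers of shoot and root were also read. RCA and LHCB4.2, photosynthesis genes of the shoot, averaged 13.85, 13.87 and 13.91 on the BL arrays, against 13.79, 14.09 and 12.65 on the solvent arrays. PYK10, a glucosidase gene of roots, had 13.65, 13.55 and 13.48 with BL, against 13.41, 13.66 and 12.00 with solvent. Both organs of a whole seedling are thus represented by their markers, and both sets are lowest on solvent array 3. In bulk RNA, fewer cells of a type and less RNA per cell cannot be told apart. FMA, a guard cell gene, differed by 0.26, or by 0.11 without solvent array 3. The reference genes PEX4, AT4G34270 (TIP41), AT2G28390 (SAND) and GAPC2 differed by 0.14, 0.088, 0.15 and 0.33, or by 0.16, 0.12, 0.014 and 0.100 without solvent array 3, none called, with GAPC2 at 13.01 on solvent array 3 and between 13.66 and 13.89 on the others.

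Broader families held 1 call, at UGT85A2, which is already described above. Of 28 UDP-glycosyltransferase genes, UGT85A2 was called lower without solvent array 3 (0.0533% of all probe sets were) and the others in neither fit, with medians of -0.039 and 0.0035. The 7 glutathione S-transferase genes had medians of 0.50 and 0.11 and the 4 antioxidant enzyme genes -0.026 and 0.048, with 0 called. The 69 plastid-encoded genes had medians of 0.045 and -0.13 and 0 calls. Of these, 41 were higher with BL with all arrays and 11 without solvent array 3, against 58.8% and 56.4% of all genes.

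The response could also be set against that of seedlings under H2O2, where the 5 pairs share no array with the comparison above. In a limma fit of those 10 arrays alone BL called 0 probe sets (0%), with 787 at an unadjusted p under 0.05 (5.99%). Of the 52 probe sets called at 0 mM without solvent array 3, 46 had the same sign there (88.5%, against 45.1% of all probe sets), but the median change in the direction seen at 0 mM was 0.13 log2 units there, against a median size of 1.95 at 0 mM. The 52 include 12 that passed the filter on signal only through the BL arrays at 0 mM, so their sign under H2O2 carries little meaning. Both 257506_at and 259784_at count as having the same sign, with mean changes under H2O2 of 0.021 and 0.011. The 52 are also not independent of each other, so the share of 88.5% is a description only. The BL array was higher in all 5 pairs at 2.98% of probe sets and lower in all 5 at 4.58%, and at none of the 52 did all 5 pairs go in the direction seen at 0 mM.

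A fit to all 16 arrays tested the difference between the BL response at 0 mM and its mean at the 5 doses. It was called at 8 probe sets (0.0609%), 7 with a higher value at 0 mM (0.0533%) and 1 with a lower one (0.00761%), and 2131 had an unadjusted p under 0.05 (16.2%). The count was between 3 and 1786 when each 0 mM array was left out in turn: 3 without BL array 1 or 3, 16 without BL array 2, 7 without solvent array 1, 1786 without solvent array 2 and 110 without solvent array 3. Of the 8, 4 have a gene name, 7 are among the 52, and 5 passed the filter on signal only through the BL arrays at 0 mM.

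AT1G71000 responded by 3.62 at 0 mM and by -0.46, 0.41, 0.40, 1.06 and -0.41 at 1, 5, 25, 50 and 100 mM, a difference of responses of 3.42 (SE 0.39, adjusted p = 0.0107). Its level under H2O2 was high with BL, at 6.91 to 9.35, and without it, at 6.79 to 9.82, in each case near or above the 7.14 to 7.43 of BL seedlings without H2O2. UGT85A2 differed in its responses by -1.66 (SE 0.19, adjusted p = 0.0107) and lay at 9.79 to 10.50 with BL and 10.21 to 10.38 with solvent under H2O2, above BL seedlings without H2O2 by more than 1 log2 unit. AT4G38050 differed by 2.05 (SE 0.23, adjusted p = 0.0107). It lay at 3.32 to 3.79 with BL and 3.48 to 4.00 with solvent under H2O2, so that the BL arrays at 0 mM, at 5.24 to 5.78, were the only ones of the 16 above 5 and the ones through which it passed the filter. HLL is a gene for a mitochondrial ribosomal protein needed in ovule growth. Its response was 0.67 at 0 mM, or 0.65 without solvent array 3. At the rising doses it was -0.28, -0.42, -0.29, -0.25 and -0.11, a difference of responses of 0.94 with all arrays (SE 0.13, adjusted p = 0.0447). Its call was lost without any of the BL arrays or solvent array 1. The calls of AT1G71000 and UGT85A2 were lost without BL array 1 (adjusted p = 0.0515 for both) or BL array 3 (0.0601 for both), while AT4G38050 stayed called when any one of the 6 was left out but not with trend and robust estimation (adjusted p = 0.0593).

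Of the 10 small heat shock protein genes 0 were called in this test, which included solvent array 3, against 0.0609% of all probe sets. A lack of calls does not show equal responses. The difference of responses ran from 0.077 at AT5G54660 to 2.52 at ATHSP22.0 (SE 0.62, limma adjusted p = 0.24). Calls of these genes without solvent array 3 are not given here. Their median BL minus solvent difference was 1.63 at 0 mM and -0.13, 0.43, 0.12, 0.44 and -0.15 at 1, 5, 25, 50 and 100 mM. ATHSP22.0 lay at 9.27 to 12.09 with BL and 9.33 to 12.21 with solvent under H2O2, all above the 8.33 to 8.90 of BL seedlings without H2O2. SPT lay at 6.01 to 6.24 with BL and 6.10 to 6.35 with solvent under H2O2, below all 3 BL arrays without H2O2, and its difference of responses was not called (adjusted p = 0.05 after rounding, not under the threshold).

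**Figure D4:**
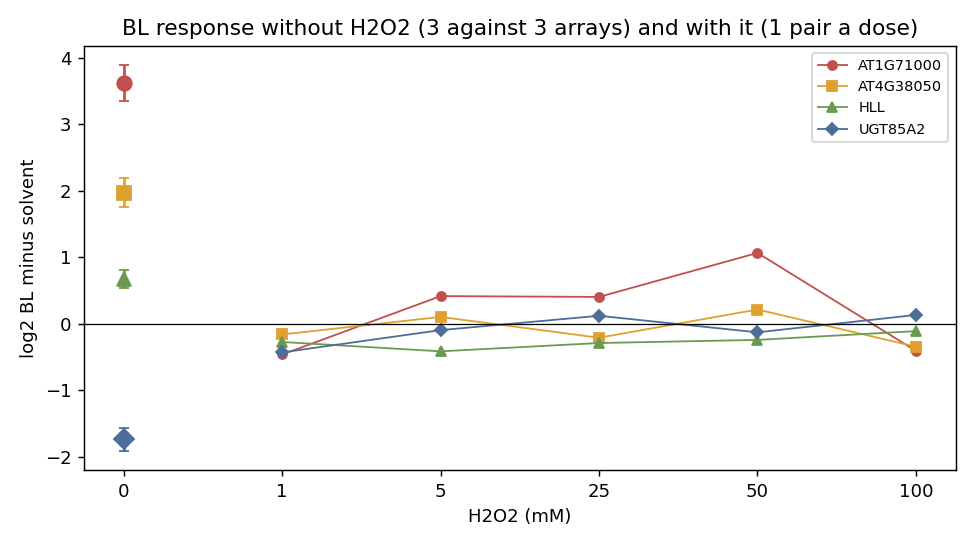
The vertical axis is the log2 difference of BL minus solvent and the horizontal axis the H2O2 dose in mM, in order but not to scale; at 0 mM the points are means of 3 against 3 arrays with the SE from limma, and at 1 to 100 mM each point is 1 pair of arrays without an error. AT1G71000, AT4G38050 and HLL lie above 0 and UGT85A2 below it at 0 mM, and at the higher doses all 4 lie between -0.46 and 1.06.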

How the data were processed

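Per the labels' protocols, RNA of whole seedlings was labelled with biotin by Affymetrix's one-cycle kit. The authors deposited processed log2 signals, 1 per array and probe set. GCRMA, which corrects background by probe sequence and normalizes across arrays, made them per the submitters' processing notes, and its version and settings are not given in the sources used here. That the scale is log2 was read from the values, whose lowest is 2.12 on each of the 6 arrays. No column was left out. Arrays have no read depth, so their number and spread limit the precision.

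Control probe sets (64 of 22810 entries) were removed. The tests covered the 13140 probe sets with a signal of 5 or more on 2 or more of the 16 arrays. Of these, 7040 have 1 gene in the platform annotation, 297 several and 5803 none. A RefSeq gene table (TAIR10.1) served for names alone and matched 13436 of the 13513 probe sets of 1 gene. A gene was represented by its own probe set of highest mean, and what its product does is general background.

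Tests were run with lmFit and eBayes of limma 3.58.1 (R 4.3.3) on all these probe sets, with Benjamini-Hochberg adjustment, and were checked on simulated data. The 6 arrays at 0 mM gave BL against solvent, without covariates, and were fitted again without solvent array 3. A model of the 16 arrays, with dose as a factor, had separate BL terms at 0 mM and above and tested their difference (8 residual degrees of freedom). A model of the 10 arrays with H2O2 (4 residual degrees of freedom) was an addition made once the data were known. Above 0 mM no dose has replicates.

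The genes named are those called with non-overlapping arrays, at most 15 in each direction with all 6 arrays and 10 without solvent array 3, then genes of smallest p up to 10 in each direction, at most 5 called differences of responses in each direction, and tested members of the brassinosteroid, auxin, gibberellin, touch, root, photosynthesis and reference lists. Other chaperone genes and FMA are named as members of their lists, outside that rule. The comparison, the 19 lists (300 genes, of which 52 had a probe set of their own and 41 were tested) and 18 families were chosen with earlier results of these data known. The lists of small heat shock proteins, larger chaperones, DnaJ genes, heat shock factors and plastid genes were drawn up later, from these values. Of the heat shock factors, none of 7 was tested.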

Additional observations from a re-analysis of the deposited data

Results flagged for a closer look

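The BL response at 0 mM differed from its mean at 1 to 100 mM at 8 probe sets in the limma fit to all 16 arrays. Among those with a gene name, the difference of the log2 responses was 3.42 at AT1G71000, 2.05 at AT4G38050, -1.66 at UGT85A2 and 0.94 at HLL. Their mean responses under H2O2 were 0.20, -0.082, -0.083 and -0.27. HLL had a positive response at 0 mM and a negative one in 5 of 5 pairs under H2O2. No dose above 0 mM has a replicate, so the spread behind these tests comes from the 0 mM arrays and from the variation of the BL response between doses. At 5 of the 8, AT4G38050 among them, only the BL arrays at 0 mM brought the probe set past the filter on signal.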

How the results depend on the processing

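The count of 3 calls for BL against solvent ran from 0 to 93 when 1 array at a time was left out. It was 0 with a replicate block, with a filter of at least 7, and with trend and robust estimation. It was 100 with the spread taken from all 16 arrays (57 higher, 43 lower) and 5113 with array weights, where the estimation stopped before converging and gave solvent array 1 a weight of 146 and solvent array 3 one of 0.061. Chosen after seeing the data, the count was 333 with the spread of the other 15 arrays and no solvent array 3, and 31 and 694 against solvent array 2 or 1 alone. It was 2 or 3 with no filter, a filter over the 6 arrays, a log2 size of at least 1, quantile normalization and median centring. AT1G71000 was not among the calls with no filter (limma adjusted p = 0.233). Its limma adjusted p was 0.523 with the replicate block, 0.0972 with the filter of at least 7 and 0.0609 with trend and robust estimation. The labels do not say whether the replicate numbers pair the arrays. The deviations of same-numbered arrays correlated at 0.18, 0.11 and -0.07, and those of arrays with different numbers at -0.23 to 0.076. So few arrays cannot settle whether they are paired. The count of 8 differences of responses ran from 3 to 1786 when 1 array was left out, and was 13 without a filter, 4 with trend and robust estimation and 7 with a size of at least 1. No gene called in the 6-array comparison or in the difference of responses changed sign under any of the alternatives run gene by gene. Most members of the broader families were not run this way. Some of them turned sign without solvent array 3, as GSTU20 did (0.70 with all arrays, -0.15 without it). Among the genes run gene by gene, signs turned at 8, none of them called with all 6 arrays. Over the fits that leave out 1 array, the log2 difference ran from -0.072 to 0.44 at RCA, -0.048 to 0.87 at LHCB4.2, -0.014 to 1.204 at EXO, -0.11 to 0.23 at CML38, -1.04 to 0.15 at XTH18, -0.36 to 0.29 at AT3G08910 and -0.38 to 0.012 at ARL. CML38 was -0.026 without BL array 3. With array weights CML37 was 0.071, AT3G08910 0.31 and CML38 -0.29. The cause of these changes was not tested, beyond the smaller number of arrays or probe sets where an alternative leaves some out. The 3 solvent arrays and their spread limit what could be called, and probe sets near the lowest signal give uncertain sizes.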
